A study of Arabidopsis thaliana with 12 samples.

Results

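A set of 9 genes that make, remove or respond to reactive oxygen species (ROS) was measured in Arabidopsis roots. They were fixed by gene identifier and are 9 of the 19802 genes in the expression table, with none lost to the authors' filter on low values: the NADPH oxidases *RBOHD* and *RBOHF*, the catalases *CAT1*, *CAT2* and *CAT3*, the ascorbate peroxidase *APX1*, and the transcription factors *ZAT12*, *UPB1* and *MYB30*. Root RNA was sequenced from Col-0, the wild type, and from CRR OE, a transgenic line in the Col-0 background that carries a CRR-GFP fusion driven by the *35S* promoter, which is active in most plant tissues. CRR is a membrane protein with a cytochrome b561 and a DOMON domain that acts as a ferric reductase. Seedlings of each line were grown for 7 days on agar with 1 mM phosphate (+Pi) or with no phosphate added (–Pi, about 20 µM residual phosphate according to the methods). The labels do not say how many transformants the line stands for. Each of the 4 groups had 3 libraries, 12 in all, and the roots of 60 seedlings were pooled for each. The comparisons ask how low phosphate and the *CRR* transgene, alone and together, go with the root levels of these genes.

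ROS in roots come from several sources. RBOH proteins at the plasma membrane pass electrons from NADPH to oxygen outside the cell and so make superoxide, which is turned into hydrogen peroxide by superoxide dismutases. Catalases in peroxisomes break hydrogen peroxide down without a reductant, whereas ascorbate peroxidases use ascorbate, which is then recycled through glutathione. In roots, ROS regulate the switch from cell division to elongation and, together with apoplastic iron, are tied to the arrest of primary root growth in low phosphate.

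The table used here gives 1 value per gene and group, the authors' mean of log2 CPM (counts scaled to a fixed library total), and no value per library. A difference of 1 between 2 such means is a 2-fold difference. The spread between libraries and the read depth are not known from this table, so no difference below could be tested or set against replicate error, and all are descriptions of the means. *CRR* and the phosphate starvation genes went with the labels. *CRR* was at 5.96 and 5.95 log2 CPM in Col-0 and at 12.70 and 12.72 in CRR OE (+Pi and –Pi, respectively), and CRR OE carries both the native gene and the fusion. The phosphate starvation marker *IPS1*, a non-coding RNA, was higher in –Pi by 10.10 in Col-0 and by 10.09 in CRR OE, and *SPX1* and *PHT1;4*, a phosphate sensor and a transporter, were also past 2-fold in both lines. All 9 root markers were in the table, among them *SHR*, *SCR* and *CASP1*, with a summed level of 273 and 371 CPM in Col-0 and 292 and 397 CPM in CRR OE (+Pi and –Pi). Their median low phosphate difference was 0.27 in Col-0 against 0.04 in CRR OE, with 1 gene, *EXPA7*, past 2-fold. Of 8 leaf markers, 6 were in the table, with a summed level of 74.6 and 53.9 CPM in Col-0 and 62.4 and 56.9 CPM in CRR OE. The leaf markers *RCA*, *RBCS1A*, *LHCB1.3* and *KAN2* were detected, at 4.98, 4.005, 3.75 and 3.44 log2 CPM in Col-0 +Pi, whereas *CA1*, a leaf carbonic anhydrase, was at -1.54 log2 CPM or lower in every group and *FIL* and *YAB3*, leaf polarity genes, were not among the genes in the table. As these are whole roots, a change in the share of a cell type and a change in RNA per cell cannot be told apart.

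The promoters of 3 genes are shown because these genes gave the patterns that the means turn on: *ZAT12* had the widest range of the 9 genes, *CAT3* had opposite differences in the 2 lines in low phosphate, and *CAT2* had nearly the same difference in both. Each is the 250 bases before the annotated gene start in TAIR10.1, 5′ to 3′ on the strand of the gene. *ZAT12* lies on chr5:24102814-24103794 on the plus strand (promoter chr5:24102564-24102813), *CAT3* on chr1:7142972-7146540 on the plus strand (promoter chr1:7142722-7142971) and *CAT2* on chr4:16700312-16703504 on the minus strand (promoter chr4:16703505-16703754). Capitals mark matches on either strand to TTGAC, the core of the W-box bound by WRKY factors, and to AAATATCT, the core of the evening element bound by clock MYB factors.
ZAT12: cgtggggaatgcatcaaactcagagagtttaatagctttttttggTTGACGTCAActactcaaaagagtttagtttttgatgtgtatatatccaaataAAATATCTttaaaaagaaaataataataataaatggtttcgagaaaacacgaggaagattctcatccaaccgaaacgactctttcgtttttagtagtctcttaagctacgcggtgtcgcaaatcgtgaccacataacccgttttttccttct
CAT3: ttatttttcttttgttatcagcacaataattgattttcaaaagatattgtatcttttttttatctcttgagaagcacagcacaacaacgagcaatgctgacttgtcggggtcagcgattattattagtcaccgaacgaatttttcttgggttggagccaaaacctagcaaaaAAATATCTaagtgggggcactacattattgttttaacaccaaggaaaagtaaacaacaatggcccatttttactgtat
CAT2: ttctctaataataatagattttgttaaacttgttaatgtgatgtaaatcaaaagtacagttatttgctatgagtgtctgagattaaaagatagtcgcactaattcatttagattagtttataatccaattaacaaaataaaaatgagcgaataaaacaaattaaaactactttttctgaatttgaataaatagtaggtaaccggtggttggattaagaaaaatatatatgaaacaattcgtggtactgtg

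The *ZAT12* window held 2 matches to the W-box core, at 205 to 201 and 200 to 196 bases before the gene start. They lie on opposite strands and side by side, as the palindrome TTGACGTCAA. An evening element core was at 152 to 145 bases. The *CAT3* window held an evening element core at 78 to 71 bases, and the *CAT2* window matched neither motif. The W-box core is short and was present in 45.36% of 19784 promoters of the same length. It was present in 4 of the 9 genes, *RBOHD*, *ZAT12*, *CAT1* and *APX1*. The bases next to the core were not part of the search, so a match alone does not show a site of WRKY factors. The evening element core was present in 4.86% of promoters and in *ZAT12* and *CAT3* among the 9. The P1BS motif (GNATATNC), the site of the phosphate starvation regulator PHR1, was present in 5.54% of promoters and in 0 of the 9 windows. The CCA1-binding site (AAAAATCT, 6.74% of promoters) was matched in *RBOHF* alone, at 120 to 113 bases, and the G-box (CACGTG, 7.17%) in 0 of the 9. The 5 motifs were searched on both strands and were chosen after the values were known.

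None of the 9 genes differed 2-fold with phosphate within a line or between the lines within a medium, and the largest of these differences were those of *ZAT12* in low phosphate. With both factors changed, from Col-0 +Pi to CRR OE –Pi, *ZAT12* differed by 1.06. *ZAT12*, *UPB1*, *RBOHD* and *RBOHF* were higher in –Pi than in +Pi in both lines, *CAT1* and *CAT2* were lower in –Pi in both lines, and *CAT3* and *MYB30* differed in opposite directions in the 2 lines. *APX1*, the most abundant, was within 0.10 log2 CPM over the 4 means. In Col-0, 0 of 9 genes reached a 2-fold difference between –Pi and +Pi, beside 5.97% of all genes in the table. The same count was 0 of 9 in CRR OE (4.03% of all genes), 0 of 9 between the lines in +Pi (0.288%), 0 of 9 between them in –Pi (1.45%) and 0 of 9 for the interaction, the low phosphate difference of CRR OE minus that of Col-0 (2.15%). At a 1.5-fold difference (0.58 on the log2 scale), *ZAT12* alone passed in Col-0 (1 of 9, beside 13.4% of all genes) and in CRR OE (1 of 9, beside 8.85%), and 0 of 9 passed between the lines in +Pi (1.47%), in –Pi (5.1%) or for the interaction (6.81%). With 9 genes, counts of 0 and 1 are near these shares. The median difference of the 9 genes was 0.07 in Col-0 against 0.09 in CRR OE for low phosphate, 0.05 and 0.10 between the lines (CRR OE minus Col-0) in +Pi and –Pi, and -0.00 for the interaction. The medians over all genes were -0.02, -0.01, -0.00, 0.00 and 0.00, respectively.

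**Figure D1:**
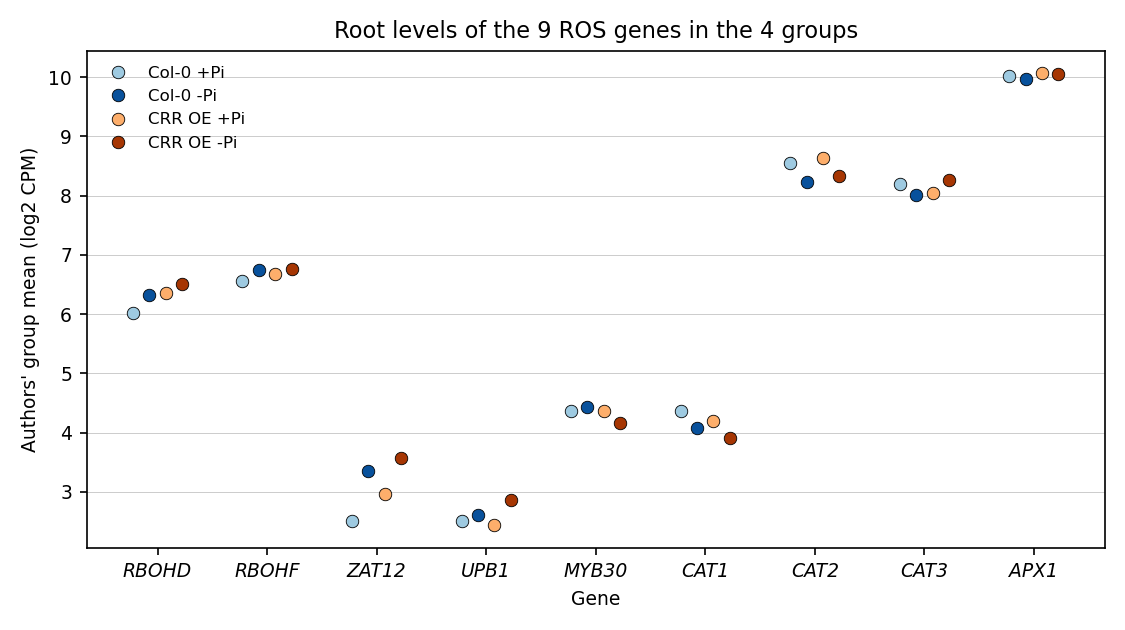
Level of each of the 9 genes (log2 CPM, vertical axis) as the authors' mean of 3 libraries in each of the 4 groups, with no error bar because the spread is not in the table. *APX1* lies near 10 in all groups, whereas *ZAT12* runs from 2.51 in Col-0 +Pi to 3.58 in CRR OE –Pi.

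Set per kb of exon, so that genes can be compared with each other, the order from the top was *APX1*, *CAT2*, *CAT3*, *RBOHF* and *RBOHD* in each of the 4 groups. Exon length is the union of exons over all annotated transcripts of a gene. A gene with many transcripts can thus get a longer length and a lower value per kb, and the order depends on the annotation. In Col-0 +Pi their levels were 9.17, 7.08, 6.43, 4.57 and 4.16 log2 CPM per kb. Below them the order varied. *ZAT12* was last of the 9 in Col-0 +Pi, at 2.54, and ranked 6 in CRR OE –Pi, at 3.61, whereas *CAT1* ranked 7 in Col-0 +Pi, at 3.21, and 9 in CRR OE –Pi, at 2.76. *MYB30* ranked 6 in 3 groups and 7 in CRR OE –Pi, and *UPB1* ranked 8 or 9. Whether neighbours in this order differ beyond the spread of the libraries is not known.

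*RBOHD* and *RBOHF* encode the NADPH oxidases best known for the oxidative bursts of immunity and of abscisic acid signalling, and RBOHF also feeds lignification at the Casparian strip. *RBOHD* (AT5G47910, chr5:19397041-19402061, 8 exons) was at 6.01 log2 CPM in Col-0 +Pi, 6.32 in Col-0 –Pi, 6.36 in CRR OE +Pi and 6.50 in CRR OE –Pi. Col-0 +Pi was thus the low group, and the mean of CRR OE in full phosphate was close to that of Col-0 in low phosphate. The difference between the lines in +Pi was 0.35 (1.27-fold), which is a larger absolute difference than that of all but 5.13% of genes. Its low phosphate difference was 0.31 in Col-0 and 0.14 in the CRR OE line, and the lines differed by 0.18 in –Pi, which makes an interaction of -0.17.

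*RBOHF* (AT1G64060, chr1:23769774-23776984, 14 exons) was at 6.56 and 6.75 log2 CPM in Col-0 and at 6.67 and 6.77 in CRR OE (+Pi and –Pi). The order of the groups was that of *RBOHD* except that Col-0 –Pi and CRR OE +Pi changed places, over a range of 0.20. Low phosphate made a difference of 0.19 in Col-0 against 0.09 in CRR OE, and CRR OE differed from Col-0 by 0.11 in +Pi and 0.02 in –Pi. The longest stretch of identical exon sequence shared by *RBOHD* and *RBOHF* is 18 bases.

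Of 10 *RBOH* genes, 8 were in the table, and *RBOHH* and *RBOHJ*, known from pollen, were not. All 8 were higher in the CRR OE line than in the wild type in both media, by 0.04 (*RBOHA*) to 0.39 (*RBOHE*) in +Pi and by 0.02 (*RBOHF*) to 0.36 (*RBOHG*) in –Pi. The median was 0.20 in +Pi and 0.19 in –Pi, where 49.9% and 50.1% of all genes, respectively, were higher in CRR OE. When every column was scaled to the same total CPM, all 8 were still higher in +Pi and 7 in –Pi, with *RBOHF* at -0.00. In low phosphate the family did not go one way: 5 of 8 were higher and 3 lower in each line. The gene with the largest low phosphate difference in Col-0 was *RBOHE*, at 0.82 in Col-0 and 0.52 in the CRR OE line, and in CRR OE it was *RBOHI*, at 0.52 in Col-0 against 0.76 in CRR OE. *RBOHA* had the lowest difference in Col-0 (-0.52) and *RBOHB* in CRR OE (-0.49). *RBOHA*, *RBOHB*, *RBOHE* and *RBOHG* each overlap a gene on the other strand by 37 to 169 bases.

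Per kb of exon, the 8 genes together summed to 111 and 132 CPM in Col-0 and 129 and 148 CPM in CRR OE (+Pi and –Pi). *RBOHF* made up 21.4%, 20.4%, 19.9% and 18.4% of this sum in Col-0 +Pi, Col-0 –Pi, CRR OE +Pi and CRR OE –Pi, and *RBOHD* 16.2%, 16.8%, 17.7% and 17.0%. The share of *RBOHF* was lower in –Pi than in +Pi in each line although its level was higher, while other members had larger differences. *RBOHC*, the oxidase of growing root hairs, made up 19.5% and 25.9% in Col-0 and 19.3% and 26.6% in the CRR OE line, and was the top member in –Pi. Genes of root hairs had differences in the same direction: *EXPA7*, a root hair expansin, was higher in –Pi by 1.25 in Col-0 against 1.37 in CRR OE. The part of root hair number in the *RBOH* sum was not tested.

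**Figure D2:**
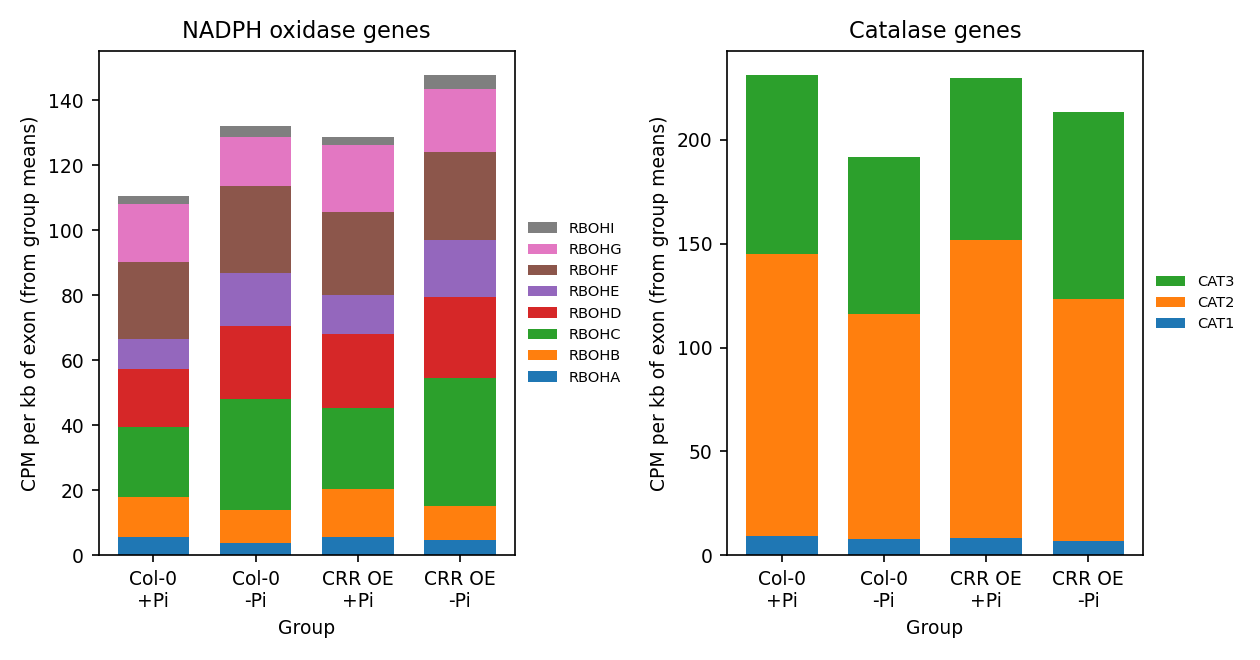
Level of each *RBOH* gene (left) and each catalase gene (right) in CPM per kb of exon, stacked by group and computed from the authors' means. The *RBOH* stack is lowest in Col-0 +Pi (111) and tallest in CRR OE –Pi (148), and the catalase stack is lowest in Col-0 –Pi (192).

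The 10 regulators of RBOH proteins, kinases and calcium sensors that phosphorylate or activate them, included 1 gene past 2-fold in Col-0 and 0 in the CRR OE line for low phosphate, and 0 between the lines. This gene was *CBL1*, a calcium sensor that works with the kinase CIPK26 on RBOHF. It was at 4.12 and 5.48 log2 CPM in Col-0 and at 4.33 and 5.29 in CRR OE (+Pi and –Pi), which is a difference of 1.36 in Col-0 against 0.96 in CRR OE. *CIPK26* had the lowest low phosphate differences of the list, -0.31 and -0.40. The list was higher in CRR OE for 8 of 10 genes in +Pi and lower for 8 of 10 in –Pi, where *CPK4*, a calcium-dependent kinase, had the lowest value (-0.41). The median difference between the lines was 0.06 in +Pi and -0.10 in –Pi, where 49.9% and 50.1% of all genes, respectively, were higher in CRR OE. *CBL1* shares 29 bases with a neighbour on the same strand.

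Catalases remove hydrogen peroxide in peroxisomes. CAT2 is the main leaf enzyme and handles the peroxide of photorespiration, CAT3 is prominent in vascular tissue and late in the day, and CAT1 is known from seeds and pollen. *CAT2* (AT4G35090, 8 exons) was at 8.55 and 8.23 log2 CPM in Col-0 and at 8.63 and 8.33 in CRR OE (+Pi and –Pi). Both –Pi means were below both +Pi means. The difference in low phosphate was -0.32 in Col-0 and -0.30 in the CRR OE line (1.25-fold and 1.23-fold lower), and the lines differed by 0.08 in +Pi and 0.10 in –Pi, with an interaction of 0.02. The gene overlaps AT4G35080, on the other strand, by 95 bases, and whether strand was used in counting is not stated. AT4G35080 differed by 0.13 in low phosphate in both lines, opposite in sign to *CAT2*.

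*CAT3* (AT1G20620, 7 exons) was at 8.19 and 8.005 log2 CPM in Col-0 and at 8.04 and 8.26 in CRR OE (+Pi and –Pi). Low phosphate went with a lower mean in Col-0 (-0.19) and a higher mean in CRR OE (0.22), so that CRR OE was below Col-0 in +Pi (-0.15) and above it in –Pi (0.25). The interaction of 0.40 was the largest in absolute size among the 9 genes. Across the table, 12.8% of genes had a larger absolute interaction, so *CAT3* was inside the range of many genes.

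*CAT1* (AT1G20630, chr1:7146636-7150180, 7 exons) was at 4.36 and 4.09 log2 CPM in Col-0 and at 4.19 and 3.91 in CRR OE. It differed by -0.28 in low phosphate in both lines and by -0.17 between the lines in both media, with an interaction of -0.00. *CAT1* and *CAT3* are neighbours on the same strand, with 95 bases between the end of *CAT3* and the start of *CAT1*, and yet the *CAT3* profile over the groups was not that of *CAT1*. The longest identical stretches between the exons of these genes are 27 bases for *CAT1* and *CAT2*, 29 for *CAT1* and *CAT3* and 24 for *CAT2* and *CAT3*.

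Per kb of exon, the catalases summed to 231 CPM in Col-0 +Pi, 192 in Col-0 –Pi, 230 in CRR OE +Pi and 214 in CRR OE –Pi. The exon union was 3385 bases over 6 transcripts for *CAT3*, 2767 over 3 for *CAT2* and 2226 over 1 for *CAT1*. The sums and the shares below depend on these lengths. *CAT2* made up 58.6% and 56.5% of the sum in Col-0 against 62.5% and 54.5% in CRR OE, *CAT3* 37.4% and 39.5% in Col-0 and 33.9% and 42.3% in the CRR OE line, and *CAT1* 3.17% to 3.998% over the groups. The balance between the main enzymes thus differed more with phosphate in CRR OE than in Col-0: the ratio of *CAT2* to *CAT3* in CPM was 1.28 and 1.17 in Col-0 but 1.51 and 1.05 in CRR OE (+Pi and –Pi). The catalase partners *NCA1*, a chaperone that catalase needs for activity, and *LSD1*, a zinc finger protein that binds catalases, completed a list of 5 genes. All 5 were lower in –Pi in Col-0 (median -0.19), where *LSD1* had the smallest difference (-0.11), whereas 3 of 5 were lower in CRR OE (median -0.20). Between the lines, 2 of 5 were higher in CRR OE in +Pi (median -0.09) and 4 of 5 in –Pi (median 0.10). None of the 5 reached 2-fold in any comparison.

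*CAT2* and *CAT3* are also known as clock- and leaf-related genes, so lists of both kinds are given beside them. Across the table, 46.0% of genes in Col-0 and 46.1% in CRR OE were higher in –Pi. Of 5 photorespiration genes, all 5 were lower in –Pi in Col-0, with a median of -0.87, and 4 of 5 were lower in CRR OE (median -0.23). *HPR1*, a peroxisomal reductase of this pathway, was at 2.18 and 0.94 log2 CPM in Col-0 and at 1.46 and 0.60 in CRR OE, a difference of -1.25 and -0.86. It was 1 of 2 genes of the list past 2-fold in Col-0, with *GOX1* (-1.02), which was below 0 log2 CPM in every group, and 0 were past it in CRR OE. Between the lines, 1 of 5 was higher in CRR OE in +Pi (median -0.13) and 4 of 5 in –Pi (median 0.14). Of the 6 leaf markers measured, 3 were higher and 3 lower in –Pi in each line, with a median of -0.39 in Col-0 and 0.17 in the CRR OE line. *LHCB2.1*, a light-harvesting protein gene, differed by -0.87 in Col-0 against -1.47 in CRR OE, whereas *RBCS1A*, a Rubisco small subunit gene, differed by -0.82 in Col-0 against 0.38 in CRR OE, an interaction of 1.20. Only *CA1*, near the floor of the table, was past 2-fold between the lines (2.46 in –Pi). Of 9 clock genes, 0 reached 2-fold. In CRR OE, 7 of 9 were higher than in Col-0 in +Pi (median 0.14) and 8 of 9 in –Pi (median 0.21), led by *PRR9* at 0.66 and 0.78. Of all genes, 49.9% and 50.1%, respectively, were higher in CRR OE. For low phosphate, the median difference of the clock genes was -0.06 in Col-0 against 0.04 in CRR OE. The part of green tissue or of harvest time in the catalase differences was not tested.

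*APX1* (AT1G07890, chr1:2437281-2439665, 10 exons in its longest model), the main cytosolic ascorbate peroxidase, was at 10.01 and 9.96 log2 CPM in Col-0 and at 10.06 and 10.05 in CRR OE (+Pi and –Pi). The 4 means lay within 0.10, the narrowest range of the 9 genes. The low phosphate difference was -0.05 in Col-0 and -0.01 in the CRR OE line, where 79.5% and 95.4% of all genes, respectively, had a larger absolute difference. CRR OE was above Col-0 by 0.05 in +Pi and 0.09 in –Pi, with an interaction of 0.04. With no spread between libraries, this does not show that the level is equal in the 4 groups.

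Of 8 genes listed under the ascorbate peroxidase family, 7 were in the table and *APX2*, a heat- and light-induced gene, was not. Membership of this list does not show peroxidase activity. *APX1* made up 74.2% and 73.2% of the family in Col-0 against 75.1% and 75.0% in CRR OE, per kb of exon. The family median was near 0, at -0.05 and 0.06 for low phosphate in Col-0 and CRR OE, and at -0.06 and 0.09 between the lines in +Pi and –Pi. The widest differences were at the low end of expression: *TL29*, a thylakoid protein, differed by -0.88 in Col-0 and 0.13 in the CRR OE line, an interaction of 1.00, at levels from -0.71 to 0.17 log2 CPM.

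Some enzymes around APX1 showed larger differences than APX1 itself. Of a list of 9 genes, the superoxide dismutases and their copper chaperone *CCS*, 8 were in the table (*MSD2* was not) and 0 reached 2-fold. *CSD1*, the cytosolic copper/zinc enzyme, was at 7.09 and 7.43 log2 CPM in Col-0 and at 7.22 and 8.19 in CRR OE (+Pi and –Pi), and was above Col-0 in CRR OE by 0.76 in –Pi. *FSD1*, an iron enzyme, was at 9.78 and 9.48 in Col-0 and at 9.65 and 8.91 in CRR OE, and differed by -0.56 between the lines in –Pi. *CSD1* was thus at 0.154 of the CPM of *FSD1* in Col-0 +Pi, 0.242 in Col-0 –Pi, 0.185 in CRR OE +Pi and 0.605 in CRR OE –Pi. These ratios are not per kb, and the exon length is 873 bases for *CSD1* and 1553 for *FSD1*. They describe differences between the groups and not which of the 2 genes has more transcripts. The list medians were -0.15 and -0.06 for low phosphate in Col-0 and CRR OE, and -0.02 and 0.03 between the lines in +Pi and –Pi. *CSD1* overlaps a gene on the other strand by 211 bases.

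The 10 genes that recycle ascorbate and glutathione were all in the table and 0 reached 2-fold. In +Pi, 8 of 10 were above their Col-0 level in CRR OE (median 0.04), and in –Pi 8 of 10 were lower (median -0.14). Of all genes, 49.9% in +Pi and 50.1% in –Pi were higher in CRR OE. Among the 10 genes, *MDAR3*, a monodehydroascorbate reductase, had the lowest difference between the lines in –Pi, -0.68. It was at 6.78 and 7.12 log2 CPM in Col-0 and at 6.71 and 6.44 in CRR OE. Its level was not the lowest of the 10. In low phosphate, the median was -0.05 in Col-0 against -0.16 in CRR OE. Among 5 genes of ascorbate synthesis, *VTC4*, an L-galactose-1-phosphate phosphatase that also acts on inositol phosphates, stood at 5.07 and 7.08 log2 CPM in Col-0 and at 5.05 and 6.84 in CRR OE. It was the 1 gene of its list past 2-fold, higher in –Pi by 2.02 in Col-0 and 1.79 in the CRR OE line, beside list medians of 0.03 and 0.25. Between the lines, this list had medians of -0.02 in +Pi and -0.00 in –Pi.

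Glutathione peroxidase-like enzymes, which use thioredoxin to reduce peroxides, had 7 of 8 genes in the table. *GPXL4* passed 2-fold in low phosphate in both lines, at 1.23 and 1.21, but from a low level: it was at 0.07 and 1.296 log2 CPM in Col-0 and at 0.08 and 1.29 in CRR OE. *GPXL2* had the lowest difference in Col-0 (-0.32) and *GPXL1* in CRR OE (-0.32). The medians were -0.06 and -0.04 for low phosphate, and -0.00 and -0.07 between the lines in +Pi and –Pi.

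*ZAT12* (AT5G59820, 1 exon) encodes a zinc finger factor that is induced by hydrogen peroxide and many stresses, and that is known to restrain the iron deficiency factor FIT. Its means were 2.51 and 3.36 log2 CPM in Col-0 against 2.97 and 3.58 in CRR OE (+Pi and –Pi). Both –Pi means were above both +Pi means, and within each medium CRR OE was above Col-0. The low phosphate difference was 0.85 in Col-0 and 0.61 in the CRR OE line, that is 1.798-fold and 1.52-fold, and 7.89% and 8.42% of all genes had a larger absolute difference. CRR OE differed from Col-0 by 0.46 in +Pi (1.37-fold), where 2.63% of genes had a larger difference, and by 0.22 in –Pi, where 25.7% did. The interaction was -0.24. *ZAT12* had a low level, 5.71 to 11.9 CPM, and the precision of such a mean is not known from the table.

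**Figure D3:**
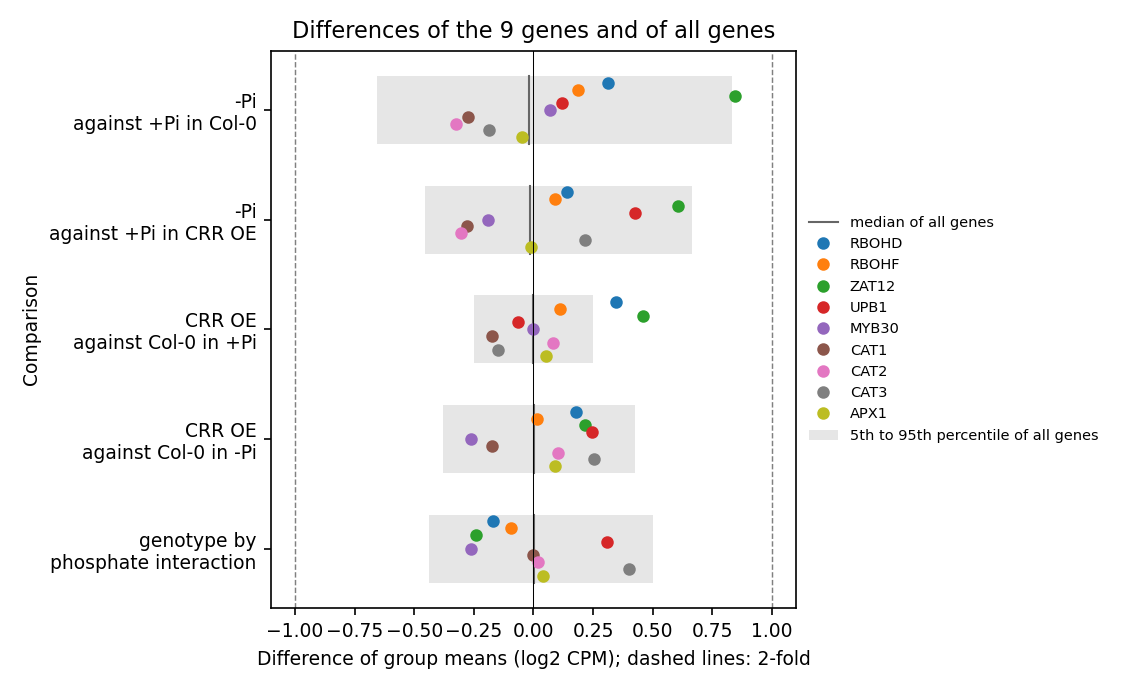
Differences of the 9 genes (points, log2 CPM) in the 5 comparisons (rows), over a grey bar that spans the 5th to the 95th percentile of all 19802 genes with a line at their median. *ZAT12* lies past the bar for low phosphate in Col-0 (0.85), *ZAT12* (0.46) and *RBOHD* (0.35) lie past it in the +Pi comparison of the lines, and no point reaches the dashed 2-fold lines.

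Of 10 ZAT-type zinc finger genes, 9 were in the table, and 8 of them were higher in –Pi in Col-0 (median 0.34) and 7 in CRR OE (median 0.30), with 0 past 2-fold. Across the table, 46.0% of genes in Col-0 and 46.1% in CRR OE were higher in –Pi. *ZAT18* had the top value of the list in Col-0, 0.85, at levels from -0.78 to 0.13 log2 CPM. *AZF2* (-0.45 in Col-0) and *AZF3* (-0.30 in CRR OE) were the lowest. *ZAT12* had the top difference of the list between the lines in +Pi, with *ZAT11* the lowest (-0.26), and the medians between the lines were 0.04 in +Pi and -0.02 in –Pi.

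Among other ROS-responsive genes, *TI1* and *OM66* were past 2-fold in low phosphate in Col-0, and both were lower in CRR OE than in Col-0 in –Pi (-0.83 each), where *ZAT12* was higher. Of 11 such genes, 8 were in the table, and 7 of the 8 were higher in –Pi in each line, with medians of 0.55 in Col-0 against 0.50 in CRR OE. *TI1* (AT2G43510), a trypsin inhibitor gene of the defensin-like kind, was at 1.40 and 4.02 log2 CPM in Col-0 and at 1.56 and 3.19 in CRR OE (+Pi and –Pi). Its low phosphate difference was 2.61 in Col-0 and 1.63 in the CRR OE line. *OM66*, an outer mitochondrial membrane ATPase gene and marker of mitochondrial stress, was at 2.28 and 3.94 in Col-0 and at 2.51 and 3.11 in CRR OE, a difference of 1.66 and 0.60. The interaction was -0.98 for *TI1* and -1.06 for *OM66*. *ERF6*, an ethylene response factor, was the exception in low phosphate, at -0.39 and -0.76. Between the lines, the list median was 0.04 in +Pi and -0.06 in –Pi.

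*UPB1* (AT2G47270, chr2:19411430-19412328, minus strand, 1 exon) encodes a bHLH factor that represses peroxidases in the transition zone and so sets the balance of superoxide and hydrogen peroxide between division and elongation. It was at 2.502 and 2.62 log2 CPM in Col-0 and at 2.44 and 2.87 in CRR OE (+Pi and –Pi). This was the lowest level of the 9 genes in CPM, 5.42 to 7.29, and the precision of such a mean is not known. CRR OE –Pi was the high group, and the other means lay between 2.44 and 2.62. The low phosphate difference was 0.12 in Col-0 against 0.43 in CRR OE (13.5% of genes had a larger one), and the lines differed by -0.06 in +Pi and 0.25 in –Pi, with an interaction of 0.31. Of 3 peroxidase genes known as its targets, *PER57* was at 8.25 and 8.91 log2 CPM in Col-0 and at 8.35 and 9.03 in CRR OE, higher in –Pi by 0.65 and 0.69, whereas *PER40*, the lowest of the list, differed by -0.14 and -0.21. The list medians were -0.04 and -0.11 for low phosphate, and 0.01 and -0.05 between the lines in +Pi and –Pi.

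*MYB30* (AT3G28910, chr3:10911132-10913190, 3 exons) encodes a factor that promotes the hypersensitive response and, in roots, regulates elongation under ROS through lipid transfer and very long chain fatty acid genes. It was at 4.36 and 4.43 log2 CPM in Col-0 and at 4.36 and 4.17 in CRR OE (+Pi and –Pi). The lines were level in +Pi (-0.00) and CRR OE was below Col-0 in –Pi (-0.26), the lowest of the 9 genes in that comparison. The low phosphate difference was 0.07 in Col-0 and -0.19 in the CRR OE line, and the interaction was -0.26. Across the table, 46.0% of genes in Col-0 and 46.1% in CRR OE were higher in –Pi than in +Pi. All 8 lipid transfer and fatty acid genes taken as *MYB30* targets were higher in –Pi in Col-0 (median 0.24), from 0.14 (*FDH*) to 0.73 (*LTP5*), and 6 of 8 in CRR OE (median 0.04). In –Pi, 5 of 8 were lower in CRR OE than in Col-0 (median -0.19), with *LTP5*, a lipid transfer protein gene, at -0.74. In +Pi 3 of 8 were lower (median 0.03). Of all genes, 50.1% in –Pi and 49.9% in +Pi were higher in CRR OE, so these counts are near an even split. Neither this list nor the list of *MYB30* and 4 related MYB genes had a member past 2-fold. These 5 MYB genes, *MYB30* included, had medians of -0.02 and -0.05 for low phosphate, and -0.03 and -0.26 between the lines in +Pi and –Pi, the last being the value of *MYB30* itself. *MYB31*, at 1.11 and 1.09 in Col-0 against 1.32 and 1.81 in CRR OE, had the top value of that list in –Pi (0.71).

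The 9 genes stood beside 77 other measured genes of the ROS network. These 77 are the genes of the lists of oxidases, their regulators, dismutases, catalase partners, peroxidases, ascorbate and glutathione enzymes, zinc fingers, ROS-responsive genes, *UPB1* targets and *MYB30* relatives. In Col-0, 5 of the 77 were past 2-fold in –Pi, all higher (*VTC4*, *TI1*, *OM66*, *CBL1* and *GPXL4*), beside 5.97% of all genes, and in CRR OE 3 were (*VTC4*, *TI1* and *GPXL4*), beside 4.03%. Between the lines, 0 of 77 were past 2-fold in +Pi, beside 0.288% of all genes, and 0 in –Pi, beside 1.45%. For the interaction 1 was higher (*TL29*, at -0.71 to 0.17 log2 CPM) and 1 lower (*OM66*), beside 2.15%. These counts are near the shares over all genes. The median absolute difference in low phosphate was 0.19 for the 9 genes, 0.23 for the 77 and 0.14 for all genes in Col-0. It was 0.22, 0.25 and 0.12, respectively, in CRR OE. Between the lines it was 0.11, 0.08 and 0.08 in +Pi and 0.18, 0.13 and 0.11 in –Pi.

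**Figure D4:**
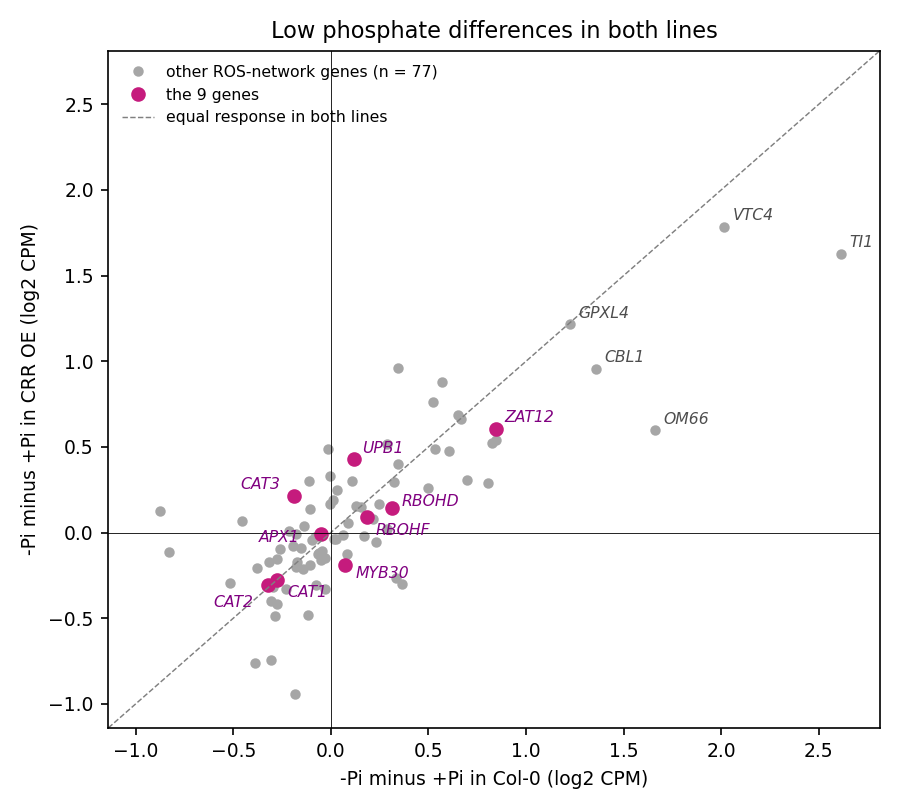
Low phosphate difference in CRR OE (vertical, log2 CPM) against that in Col-0 (horizontal, log2 CPM) for the 9 genes (magenta) and 77 other ROS-network genes (grey), with a dashed line of equality. *OM66* (1.66 and 0.60) and *TI1* (2.61 and 1.63) lie below the line, *CAT3* (-0.19 and 0.22) and *UPB1* (0.12 and 0.43) above it.

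For *ZAT12*, *RBOHD* and *CAT1*, the genes with the widest ranges, the genes nearest in profile were sought among 17996 genes with a mean of at least 1 log2 CPM, by the root mean square distance between the 4 centred means. Nearest to *ZAT12* were *LAC9*, a laccase (0.022), AT1G61230, a mannose-binding lectin family gene (0.054), and *RBOHE* (0.059). Nearest to *RBOHD* were *QRT1*, a pectinesterase (0.015), *ACS7*, an ethylene synthesis enzyme (0.016), and AT3G62780 (0.021). Nearest to *CAT1* were AT4G11175, a chloroplast translation initiation factor (0.0077), *PCMP-E28*, a pentatricopeptide repeat protein gene (0.014), and AT4G01883 (0.015). With only 4 means per gene, many genes of the table lie close to any profile.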

How the data were processed

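The authors trimmed the reads with Cutadapt 1.8, aligned them to TAIR10 with STAR 2.5.3a, counted them per gene with HTSeq 0.9.1, dropped genes that stayed below 1 CPM in every library, and used edgeR 3.24.3 for TMM scaling and log2 CPM. RSEM 1.2.31, R 3.5.3 and limma are listed in the submitters' processing notes as well. The deposited table gives 19802 genes as log2 CPM with a single mean for each group, so a mean back on the CPM scale is geometric. The 5 deposited comparison tables hold the authors' own fold changes and p-values and were not used. Counting strand is not given in the sources used here, and the labels name a column kit for the RNA extraction where the RNA-seq methods name Trizol.

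Differences of the group means were computed with Python 3.11.15, pandas 2.3.3 and NumPy 2.4.6, and the script was tested on simulated data with 200 changed genes. No test, standard error or replicate check could be made from 1 mean per group. Labels give 3 separate libraries per group and do not say how they were grown apart. Differences of at least 1 were counted as past 2-fold. All 9 genes were described, and of the other lists the genes past 2-fold between a pair of groups with a top mean of at least 1 log2 CPM, or the highest and the lowest of a list. *RBOHC*, *KAN2*, *AT4G35080*, *GOX1*, the catalase partners, the unlisted thioredoxins and the marker genes given without values were named outside this rule, after their values were seen. The lists held 138 genes, of which 127 were in the table. The genes and lists were chosen with earlier results of these data known. Gene models, promoters and exon lengths came from RefSeq TAIR10.1, whose gene starts and ends matched the table for 99.99% of 19783 genes.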

Additional observations from a re-analysis of the deposited data

How the results depend on the processing

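The 45 differences of the 9 genes moved by less than 0.1 log2 CPM with 1 CPM added before the logarithm, with the median difference over all genes subtracted, with genes below a top mean of 1 log2 CPM left out, and with each column scaled to one total, the last chosen after seeing the data. Only the added CPM can move single genes by unlike amounts. Leaving out other genes cannot change a difference. Subtracting the median or scaling the columns shifts all genes of a comparison equally. Signs differed for values near 0 only: *APX1* in low phosphate in CRR OE was 0.01 after subtracting the median, and with one total *RBOHF* between the lines in –Pi was -0.00 and the interaction of *CAT1* was 0.01. At a threshold of 0.58, 1 of the 9 genes passed in Col-0 and 1 in CRR OE for low phosphate, against 0 at 1. Over all genes, in the order low phosphate in Col-0, in CRR OE, CRR OE against Col-0 in +Pi, in –Pi and interaction, 1182, 799, 57, 287 and 426 were past 2-fold. With 1 CPM added these were 723, 499, 8, 92 and 136, and at 0.58 they were 2657, 1753, 291, 1010 and 1349. Without genes below the minimum level, the last 3 comparisons had 27, 161 and 249. Fewer low genes pass 2-fold when 1 CPM is added or when they are left out, by construction. No paired analysis was possible because the table gives 1 mean per group and no value for a numbered library, and leaving out each replicate in turn was not run for the same reason.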

Other observations

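Thioredoxins reduce disulfides in other proteins, peroxiredoxins and glutathione peroxidase-like enzymes among them, and were looked at after the values of the ROS genes were known. The 43 genes taken are those whose description begins with Thioredoxin or names a thioredoxin reductase, with peroxiredoxin Q (*ATPRX Q*) among them. Genes whose description holds the word elsewhere were not counted. In low phosphate, 1 was past 2-fold higher and 3 lower in Col-0 (*CXXS1*, *ATPRX Q* and *AT4G12170*), beside 5.97% of all genes. In CRR OE 1 was higher and 1 lower, beside 4.03%, and the medians were -0.09 and -0.03. *AT4G12170* was below 0 log2 CPM in every group. Between the lines, 0 were past 2-fold in +Pi (median -0.03), beside 0.288% of all genes, and 1 was lower in CRR OE in –Pi (median -0.02), beside 1.45%. *TRX8*, a thioredoxin of the h type, was at 1.13 and 3.33 log2 CPM in Col-0 and at 0.90 and 1.98 in CRR OE (+Pi and –Pi), a low phosphate difference of 2.20 and 1.08 and a difference of -1.35 between the lines in –Pi. *TRX7*, of the same type, was at 2.52 and 3.25 in Col-0 and at 3.08 and 2.74 in CRR OE, with an interaction of -1.08. *CXXS1*, a thioredoxin-like protein gene, differed by -1.098 in Col-0 and -0.82 in CRR OE in low phosphate. The 9 methionine sulfoxide reductases, which repair oxidised methionine, were also added after the other lists. They held 0 genes past 2-fold in any comparison. All 9 were lower in CRR OE than in Col-0 in +Pi, by -0.32 to -0.01, with a median of -0.06, where 49.9% of all genes were higher in CRR OE. In –Pi the median difference of these reductases between the lines was -0.02, from -0.15 to 0.15. None of these differences could be tested, since the table holds 1 mean per group.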
